A study of Mus musculus with 26 samples.

Results

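Messenger RNA of mouse embryonic stem cells that lack Prdm14 was compared with that of knockout cells given a Prdm14 transgene, in serum medium with LIF. The comparison rests on 4 of the 26 Affymetrix arrays of the series, chosen by their titles alone: 2 arrays of Prdm14 knockout cells with the AGP14 transgene after 2 days in serum, and 2 arrays of Prdm14 knockout cells in the same medium. All cells were C57BL/6 and male and were grown on mouse embryonic fibroblast feeders, so feeder RNA can be in every sample. AGP14 is a Prdm14 open reading frame with Avitag and EGFP tags, expressed from the pPyCAG vector, whose CAG promoter is active in most cell types and does not follow the endogenous gene. Both groups of the comparison therefore lack the endogenous gene and differ in the transgene. Wild-type cells (Prdm14 +/+) in the same medium, 2 arrays, are given beside them. The same genotypes in serum without LIF supply arrays that the comparison did not use. Arrays of knockout and wild-type cells in serum with LIF and the MEK inhibitor PD0325901 (0.4 uM) are used further on. Prdm14 levels are also given in 2i, which held PD0325901 (0.4 uM), CHIR99021 (3 uM) and LIF at 1000 units per ml. The serum medium was GMEM with 20% fetal bovine serum and LIF at 1000 units per ml. The sources used here do not say whether a genotype is 1 clone or several, or whether replicates are separate cultures. The p-values therefore cover the array-to-array spread alone, and that spread may be technical. Differences between clones and those that go with the transgene cannot be told apart in this design.

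PRDM14 is a zinc finger protein with a PR domain, made in naive pluripotent cells and in the early germline. It binds DNA and works with the corepressors of the CBFA2T family and with polycomb repressive complex 2. In mouse embryonic stem cells it is known for holding down FGF receptor signalling and the de novo DNA methyltransferases Dnmt3a and Dnmt3b, and cells without it drift towards an epiblast-like state when they are not in inhibitor medium. LIF acts through STAT3 on part of the same naive gene network.

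Values are the deposited log signals of the array. Base 2 was inferred from the highest value, 13.89, and is not stated in the sources, and every difference is given on that log2 scale. Of 18193 genes, each read by the probe set whose mean over the 26 arrays was highest, 9010 had more than 1 probe set. No detection calls were used here, so a level of 2 to 4 is a dim signal whose order is uncertain. Array medians over the series lay between 4.86 and 5.01. The labelling control for lys read 7.25 to 7.47 on the 4 arrays, within the range of all 14 arrays in serum, in serum without LIF and of AGP14 cells in 2i, and 13.28 to 13.51 on the remaining 12, so the arrays compared here share a labelling level. Replicates of AGP14 in serum differed by a median of 0.15 over genes and those of the knockout by 0.19. The pluripotency markers were high: Pou5f1 read 12.33 to 12.61 and Sox2 12.40 to 12.75 on the 4 arrays. Among extraembryonic endoderm genes, the regulators Gata6 and Gata4 read 3.59 to 4.74. Other members, such as Sox7, Lama1 and the keratins given below, were not all low. The mean of that list was 6.35 and 6.23 in AGP14 and 6.22 and 6.29 in the knockout.

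The Prdm14 probe set did not separate the genotypes in serum. It read 6.42 and 6.33 in AGP14, 5.40 and 6.47 in the knockout and 5.88 and 7.38 in wild type. The groups overlapped, and the difference of 0.44 between AGP14 and knockout (SE 0.41) did not pass (limma adjusted p = 0.593). Without knockout replicate 1 it was -0.10. In 2i the arrays labelled knockout read 11.33 and 11.24, above wild type at 8.95 and 9.40 and AGP14 at 9.30 and 9.11. Without LIF AGP14 read 5.12 and 4.86, wild type 4.28 and 5.17 and the knockout 3.21 and 4.05. In every genotype, AGP14 with its CAG promoter included, the signal was thus lower in serum than in 2i and lower still without LIF. Where the signal in AGP14 comes from was not tested. The sources used here give neither the position of the deletion nor whether the probe set sees the transgene, so it checks neither label. The groups are called by their labels below.

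In serum, 1912 genes (10.5% of those tested) differed between AGP14 and knockout at an adjusted p under 0.05 in limma. Of these, 952 were higher in AGP14 (5.23%) and 960 were lower (5.28%). The difference was over 2-fold for 276 of the higher and 283 of the lower genes. At an unadjusted p under 0.05 there were 4195 genes, and the median difference over all genes was -0.01. Leaving out 1 of the 4 arrays left between 882 genes (without AGP14 replicate 2) and 1169 genes (without knockout replicate 2), with 1110 without AGP14 replicate 1 and 959 without knockout replicate 1. Below, "rose" and "fell" mean higher and lower in AGP14 than in the knockout among genes that passed.

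The largest rise was that of Slc38a4, an imprinted gene for an amino acid transporter. It read 9.06 and 9.46 in AGP14, 4.56 and 4.25 in the knockout and 9.83 and 9.71 in wild type. The AGP14 arrays lay far above the knockout arrays and just under wild type, a difference of 4.86 (SE 0.40, 28.9-fold, limma adjusted p = 9.94e-07). Obox6, an oocyte homeobox gene, read 7.81 and 7.47 in AGP14 against 3.20 and 3.34, a rise of 4.37 (SE 0.78, adjusted p = 0.00117). Serpinb6c, a clade B serpin, read 8.56 and 8.84 against 5.0 and 4.34, a rise of 4.03 (SE 0.54, adjusted p = 9.67e-05). The X-linked homeobox gene Rhox5 stood at 11.21 and 10.58 in AGP14, at 6.65 and 7.52 in the knockout and at 11.16 and 10.09 in wild type. Its rise of 3.81 (SE 0.56, adjusted p = 0.000229) brought it into the wild-type range. Trpm1, which encodes a cation channel, rose by 4.12 from 3.01 and 3.55 to 7.10 and 7.69 (SE 0.42, adjusted p = 7.02e-06), although 1 of its 3 further probe sets went the other way (-0.37).

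The remaining large rises were of genes with varied products. Smarcd3, a subunit of SWI/SNF chromatin remodelling complexes, read 7.01 and 6.88 in AGP14 against 3.67 and 4.15 in the knockout, a rise of 3.04 (SE 0.30, limma adjusted p = 5.05e-06). Nppb, which encodes the natriuretic peptide BNP, rose by 3.13 (SE 0.41) and the laminin chain gene Lama1 by 3.01 (SE 0.38). Sox7, a SoxF transcription factor, read 7.31 and 7.65 against 4.43 and 4.51. The bHLH repressor gene Msc read 7.69 and 7.66 against 4.45 and 4.98. In all of these the AGP14 arrays also lay above wild type, whose higher array read 5.0 for Smarcd3, 6.88 for Nppb, 5.98 for Lama1, 5.87 for Sox7 and 7.16 for Msc. Tcl1, a coactivator of AKT kinases, and the gene 2210409E12Rik completed the stable rises at 2.92 and 2.73. Calls of 3 of the 15 largest rises ended in fits with 1 array left out, where the SE is wider. The Ras-family gene Mras did not pass without knockout replicate 1 (adjusted p = 0.0522), Gm21283 did not without knockout replicate 2 (0.0834), and Elobl, whose knockout arrays read 5.44 and 2.49, did not without AGP14 replicate 1 or knockout replicate 2 (largest 0.14).

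The largest fall was that of Nnat, an imprinted gene for a small membrane proteolipid. It read 2.98 and 1.65 in AGP14, 8.05 and 6.83 in the knockout and 6.52 and 7.56 in wild type. The AGP14 arrays were near the dim end of the scale and the other 4 serum arrays were not, a difference of -5.12 (SE 0.69, limma adjusted p = 0.000103). Psors1c2 read 4.80 and 4.68 in AGP14 against 8.0 and 8.0 in the knockout (-3.26, SE 0.43, adjusted p = 9.39e-05). The carbonic anhydrase gene Car2 read 6.86 and 6.43 against 9.65 and 9.90, a fall to below the wild-type arrays at 8.90 and 8.38. The imprinted gene Mest read 5.61 and 6.01 in AGP14, 8.72 and 7.87 in the knockout and 8.63 and 9.25 in wild type, so that AGP14 stood apart from both other genotypes.

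The remaining large falls were also of varied genes. Pim2, a serine/threonine kinase gene, read 8.27 and 7.90 in AGP14 against 10.77 and 10.33 (-2.46, SE 0.35, limma adjusted p = 0.000178). Slc40a1, the iron exporter ferroportin, fell by 2.48 and Sema6a, a transmembrane semaphorin, by 2.56. The POU factor gene Pou3f1, a mark of the formative and primed epiblast, read 8.97 and 8.48 against 10.89 and 11.05. Rbp7, 2610037D02Rik, Fndc3c1 and Rwdd3 fell by 2.43, 3.11, 2.28 and 2.45. Sema6a and Rwdd3 each had 1 further probe set that was higher in AGP14 (0.45 and 0.58). Calls of 3 of the 15 depended on a choice: Car4, another carbonic anhydrase, did not pass without AGP14 replicate 2 or knockout replicate 1 (largest adjusted p = 0.0793), Fgf5 not without any 1 array (0.192), and the planar polarity gene Prickle1 not when its probe sets were averaged (0.441).

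Promoters of 4 genes that moved and kept their calls are printed because each holds the letters GGTCTCT or their reverse complement AGAGACC, which open the sequence motif that PRDM14 is known to favour. They were chosen for holding it, after the values were seen, among members of the gene lists whose difference passed and was large. Not every chromosome was searched. In all, 50 genes that rose and 42 that fell hold the letters, so these 4 are a small part of them. Each window runs from 250 bases before to 50 bases after the RefSeq start of the gene on build GRCm38.p6, is written 5′ to 3′ on the gene's strand, and has the 7 letters in capitals.
Rhox5, chrX:37754358-37754657, plus strand, rise of 3.81: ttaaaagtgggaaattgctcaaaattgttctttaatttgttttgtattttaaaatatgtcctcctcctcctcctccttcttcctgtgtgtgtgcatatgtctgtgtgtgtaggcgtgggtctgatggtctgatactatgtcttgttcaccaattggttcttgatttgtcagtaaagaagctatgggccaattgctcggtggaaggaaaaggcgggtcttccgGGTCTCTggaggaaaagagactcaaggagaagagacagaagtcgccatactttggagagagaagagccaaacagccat
Hormad1, chr3:95559427-95559726, plus strand, rise of 1.92: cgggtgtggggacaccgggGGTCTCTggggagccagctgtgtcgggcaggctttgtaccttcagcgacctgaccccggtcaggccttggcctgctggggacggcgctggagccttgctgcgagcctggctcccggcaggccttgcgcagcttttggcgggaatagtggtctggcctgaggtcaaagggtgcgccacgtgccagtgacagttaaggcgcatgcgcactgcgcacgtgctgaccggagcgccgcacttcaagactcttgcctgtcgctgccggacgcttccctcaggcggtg
Krt18, chr15:102027966-102028265, plus strand, difference of -2.14: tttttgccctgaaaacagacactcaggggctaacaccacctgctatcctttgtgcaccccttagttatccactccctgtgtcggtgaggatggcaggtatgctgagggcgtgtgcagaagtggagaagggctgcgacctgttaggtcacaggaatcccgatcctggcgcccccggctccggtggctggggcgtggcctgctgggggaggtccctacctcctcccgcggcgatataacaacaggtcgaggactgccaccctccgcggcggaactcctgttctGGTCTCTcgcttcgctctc
Hs6st2, chrX:51680428-51680727, minus strand, difference of -1.96: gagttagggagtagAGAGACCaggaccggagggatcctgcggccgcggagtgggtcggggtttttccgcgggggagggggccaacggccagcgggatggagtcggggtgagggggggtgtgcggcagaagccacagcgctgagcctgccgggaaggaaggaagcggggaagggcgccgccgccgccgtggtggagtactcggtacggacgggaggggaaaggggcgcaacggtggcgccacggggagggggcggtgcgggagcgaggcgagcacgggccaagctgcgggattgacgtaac

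The match begins at base 20 of the window in Hormad1, base 15 in Hs6st2, base 223 in Rhox5 and base 282 in Krt18. The Rhox5 window holds 5 CpG dinucleotides, against 24 in Hormad1, 17 in Krt18 and 33 in Hs6st2. Counted by gene and over both strands, the 7 letters occur in 6.45% of the 775 genes that rose and have a window. They occur in 5.55% of the 757 such genes that fell and in 6.62% of all 14452 measured genes with a window. Counted by window, which is a different measure, they occur in 5.68% of all 32851 windows. By gene, the letters were thus about as frequent in genes that moved as in all measured genes. A match describes a window, not a bound site.

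Naive pluripotency genes rose together. Of 24 measured members of that list, 15 rose in limma and 0 fell (0 also at an unadjusted p under 0.05; background 5.23% and 5.28%), with a median difference of 0.86 against -0.01 over all genes. With any 1 array left out, 12 to 14 members rose. Both AGP14 arrays lay above both knockout arrays for 20 members, where 25.2% of all genes did so; counting either direction, the groups did not overlap for 52.3% of all genes. The list holds the transcription factors that sustain the naive state and genes that mark it.

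Nanog, a core regulator of the naive state, read 11.90 and 11.98 in AGP14, 10.14 and 10.50 in the knockout and 10.73 and 11.38 in wild type. Its rise of 1.62 (SE 0.18, limma adjusted p = 1.92e-05) put AGP14 above every wild-type array. The orphan nuclear receptor gene Nr5a2 read 9.91 and 9.96 against 7.20 and 7.55, and Nr0b1, which encodes DAX1, read 11.83 and 11.78 against 9.68 and 9.91. Those are rises of 2.56 (SE 0.29) and 2.01 (SE 0.27). The third nuclear receptor of the network, Esrrb, rose by 1.69 from 8.80 and 9.04 to 10.56 and 10.65. The T-box factor gene Tbx3 read 9.71 and 9.89 in AGP14, 7.75 and 7.20 in the knockout and 7.80 and 8.77 in wild type. Tfcp2l1, a STAT3 target that sustains self-renewal, read 10.40 and 10.52 against 7.79 and 7.81, the largest rise in the list after Tcl1 (2.66, SE 0.29). One of its 2 further probe sets was lower in AGP14 (-1.06), and its call ended when probe sets were averaged (0.86, adjusted p = 0.141).

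Other members of the list rose by less. Klf2 read 11.97 and 11.90 against 11.36 and 11.07 (0.72, SE 0.14), and Zfp42, the pluripotency marker Rex1, 10.88 and 11.02 against 10.28 and 10.04 (0.79, SE 0.11). Stat3, the effector of LIF signalling, rose by 0.78 and Fbxo15 by 1.09. Klf5 rose by 0.94, but not when its probe sets were averaged (0.33, limma adjusted p = 0.463). Klf4 rose by 1.57 over knockout arrays that read 10.08 and 11.04, and did not pass without AGP14 replicate 2 or knockout replicate 1 (1.09 to 2.05 over the 4 fits). Tet2 (1.01) did not pass without any 1 array, and the imprint protector Zfp57 (0.68) not without knockout replicate 1. Members that did not pass included Dppa3 (0.64), Dppa5a (0.06), Fgf4 (0.12) and the LIF co-receptor gene Il6st (0.06).

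**Figure D1:**
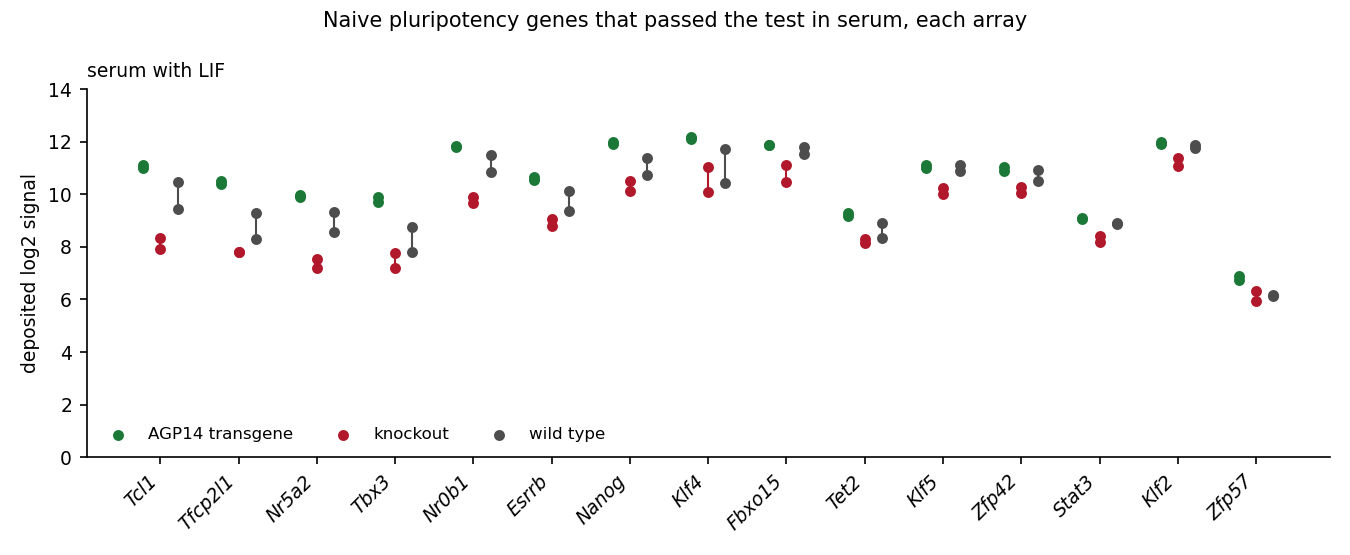
Deposited log2 signal (vertical axis) on each serum array of the 15 naive pluripotency genes that rose, in order of their difference, with AGP14, knockout and wild type side by side and a line joining the 2 arrays of a group. The AGP14 arrays lie above the knockout arrays in every gene shown, which the choice of genes fixes, and above both wild-type arrays in genes such as Tcl1, Tfcp2l1, Nr5a2, Tbx3 and Nanog.

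The core pluripotency genes, which stay on as cells leave the naive state, had calls in both directions: of 15 measured, 2 rose and 2 fell (background 5.23% and 5.28%), with a median of 0.11. Gdf3, a ligand of the TGF-beta family, rose from 9.73 and 9.88 to 10.47 and 10.46 (0.66, SE 0.10, limma adjusted p = 0.000224). Pou5f1 differed by 0.18 and lost its call without AGP14 replicate 1 or knockout replicate 1 (largest adjusted p = 0.298). The falls of the chromatin factor gene Utf1 (-0.49) and of Lin28b (-1.94) also lost their calls with an array left out. That was so for Utf1 without AGP14 replicate 2 and for Lin28b without AGP14 replicate 1 or knockout replicate 2. Sox2 (0.22) and Sall4 (0.22) did not pass.

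Genes of the primordial germ cell list rose next most often, against a background of 5.23% higher and 5.28% lower. Of 14 measured, 6 rose and 0 fell, with a median of 0.76, and 6 or 7 rose with any 1 array left out. They were Tcl1 and Rhox5, described above, and Tfap2c, Kit, Ifitm1 and Ifitm3. Tfap2c, a transcription factor of germ cell specification and of trophoblast, read 10.48 and 10.78 against 9.39 and 9.44 (1.22, SE 0.23, limma adjusted p = 0.00221). The receptor tyrosine kinase gene Kit read 8.33 and 8.60 in AGP14, 6.90 and 7.03 in the knockout and 7.06 and 7.76 in wild type, so AGP14 stood above both. Ifitm3, an interferon-induced membrane protein known as Fragilis in germ cells, read 11.55 and 11.60 against 10.60 and 9.84. Dazl, an RNA-binding protein of germ cells, differed by 0.73 and did not pass.

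Among 19 measured genes of the LIF and STAT3 response, 5 rose and 0 fell (background 5.23% and 5.28%), with a median of 0.42. Leaving out any 1 array left 3 or 4 rises. The 5 were Stat3, Klf4, Klf5 and Tfcp2l1, which are also in the naive list, and Bcl3. Bcl3, a nuclear partner of NF-kappa-B, read 6.81 and 6.87 against 5.96 and 6.19. The Bcl3 call ended without any 1 array (largest limma adjusted p = 0.18). Junb differed by 0.42 and did not pass.

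Genes of the primed and formative epiblast moved the other way, but fewer of them. Of 20 measured, 0 rose and 5 fell (background 5.23% and 5.28%), and the median was -0.09. Leaving out any 1 array left 2 to 4 falls. Pim2 and Pou3f1, given above, kept their calls. Dnmt3a, a de novo DNA methyltransferase gene, read 9.72 and 9.07 in AGP14, 11.19 and 10.80 in the knockout and 11.16 and 10.46 in wild type. Its difference of -1.60 (SE 0.36, limma adjusted p = 0.00753) did not pass without AGP14 replicate 2 or knockout replicate 1 (0.116). Dnmt3b read 12.27 and 12.01 against 13.06 and 13.01 (-0.90, SE 0.25), and Fgf5, the ligand that marks the epiblast, 6.8 and 6.30 against 9.24 and 8.61 (-2.38, SE 0.68). Both lost their calls with any 1 array left out, and under the model without an intensity trend. In each of these genes the AGP14 arrays lay below the wild-type arrays too. Otx2, a driver of the primed state, read 9.49 and 9.32 against 11.11 and 11.07, with no call (-1.69, limma adjusted p = 0.183).

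The DNA methylation machinery was split, where 5.23% of all genes rose and 5.28% fell. Of 10 measured genes 3 rose and 3 fell, and the falls were those of Dnmt3a, Dnmt3b and Hells. Hells, a remodeller that assists de novo methylation, read 11.80 and 11.72 in AGP14 against 12.25 and 12.16 (-0.45, SE 0.07, limma adjusted p = 0.000532) and kept its call. The rises were of Dnmt1, Uhrf1 and Zfp57. The maintenance genes rose by little: Dnmt1 from 10.67 and 10.59 to 11.08 and 10.93, and its cofactor Uhrf1 from 11.21 and 10.89 to 11.43 and 11.37. Neither kept its call with each array left out, Dnmt1 not without AGP14 replicate 1 or knockout replicate 2 (0.0796) and Uhrf1 not without AGP14 replicate 1, AGP14 replicate 2 or knockout replicate 2 (0.346). Of 9 measured demethylation genes 2 rose and 0 fell. Tet1, a 5-methylcytosine dioxygenase, read 11.43 and 11.36 against 10.89 and 10.94 (0.48, SE 0.07), with 1 of 3 further probe sets lower in AGP14 (-0.62) and no call when probe sets were averaged (0.820). Tet2 is given above, and Tet3 (-0.89) did not pass.

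FGF ligands and receptors fell in part: of 14 measured, 0 rose and 4 fell (background 5.23% and 5.28%). Their median of -0.05 was near that of all genes. Fgfr1 read 7.69 and 7.77 against 8.33 and 8.03, and Fgfr2 read 5.80 and 6.09 against 6.66 and 6.93. The ligand gene Fgf15 read 6.46 and 5.99 against 7.35 and 6.85, and Fgf5 is given above. All 4 calls ended in at least 1 of the fits with an array left out, where the SE is wider because 1 array stands for its group. The differences kept their sign in those fits: -2.69 to -2.06 for Fgf5 and -0.60 to -0.30 for Fgfr1. They were -0.995 to -0.705 for Fgfr2 and -1.125 to -0.625 for Fgf15. Fgfr2 also had a further probe set that was higher in AGP14 (0.90). Fgfr1 did not pass without AGP14 replicate 1, AGP14 replicate 2 or knockout replicate 1, Fgfr2 not without AGP14 replicate 1 or knockout replicate 2, and Fgf15 not without AGP14 replicate 2 or knockout replicate 1.

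Heparan sulfate chains present FGF ligands to their receptors, and Hs6st2, a 6-O-sulfotransferase of these chains, gave the clearest fall near this pathway. It read 7.42 and 7.18 in AGP14, 9.07 and 9.44 in the knockout and 9.01 and 8.99 in wild type. The AGP14 arrays stood apart from both other genotypes (-1.96, SE 0.17, 3.88-fold, limma adjusted p = 1.44e-06), and 1 of 3 further probe sets was higher in AGP14 (0.50). The proteoglycan gene Sdc1 differed by -0.37 and lost its call with any 1 array left out (largest adjusted p = 0.158). These were the 2 falls among 23 measured genes of the list, with 0 rises, where 5.28% of all genes fell and 5.23% rose. None of 23 measured ERK response and feedback genes passed in limma, which calls 10.5% of all genes, and their median was 0.04. The feedback inhibitor Spry2 read 11.55 and 11.51 against 11.76 and 11.86 (-0.28), and Spry4 9.99 and 9.92 against 9.28 and 9.44 (0.60), both short of the limit (adjusted p = 0.0852 and 0.327). At an unadjusted p under 0.05, 1 member was higher and 1 lower.

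Genes of cadherins and cell junctions fell more often than any other list. Of 16 measured, 9 fell and 1 rose (background 5.28% lower and 5.23% higher), and the median was -0.59. Between 5 and 7 fell with any 1 array left out, the fewest without AGP14 replicate 2. The claudins, which seal tight junctions, fell together. Cldn3 read 5.56 and 5.78 in AGP14 against 7.45 and 7.29 (-1.70, SE 0.18, limma adjusted p = 1.12e-05). Cldn6 read 7.77 and 7.79 against 9.09 and 9.08, and Cldn4 9.26 and 9.36 against 10.17 and 9.93. Cldn7 fell from 9.85 and 9.95 to 8.43 and 8.46 but missed the limit in 3 of the 4 fits with an array left out, those without AGP14 replicate 1, AGP14 replicate 2 or knockout replicate 2 (0.0529). Dsc2, a desmosomal cadherin, read 2.85 and 3.12 against 5.48 and 5.03. E-cadherin, Cdh1, changed little in size but beyond its spread, from 12.32 and 12.35 to 11.94 and 11.98 (-0.38, SE 0.07, adjusted p = 0.00191). Ocln (-1.04), lost without AGP14 replicate 2 or knockout replicate 1 (0.149), Tjp1 (-0.60), lost without AGP14 replicate 2 or knockout replicate 2 (0.0872), and Dsg2 (-0.81), lost without any 1 array (0.175), had less stable calls. The intermediate filament gene Vim was the rise, from 11.65 and 11.24 to 12.23 and 12.28 (0.81, SE 0.11).

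Of 4 measured simple-epithelial keratins, Krt8 and Krt18 fell, while Krt7 (-0.88) and Krt19 (-0.14) did not pass. Krt18 read 8.68 and 8.44 in AGP14, 10.77 and 10.63 in the knockout and 10.69 and 9.86 in wild type (-2.14, SE 0.45, limma adjusted p = 0.00428). Its partner Krt8 read 6.64 and 6.2 against 8.45 and 8.39, with wild type at 6.96 and 6.69. So AGP14 was near wild type for Krt8 and below it for Krt18. These keratins count in the extraembryonic endoderm list (22 measured, 3 rose, 4 fell, median 0.05). They also count in the trophoblast list (17 measured, 2 rose, 2 fell, median -0.08), beside a background of 5.23% higher and 5.28% lower. In the first, Sox7 and Lama1 rose as given above, Apoe rose by 0.64, and Amn (-1.15) and Lamb1 (-0.74) fell, the last 3 with calls that ended with any 1 array left out (largest adjusted p = 0.214). The defining regulators Gata6 (0.01), Sox17 (0.10), Foxa2 (0.10) and Hnf4a (0.01) did not pass and read between 3.62 and 5.05 on the 4 arrays. In the second, Tfap2c rose, Tead4 (0.90) lost its call with any 1 array left out, and Cdx2 (-0.09) and Elf5 (-0.73) did not pass.

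Germ layer genes had calls in both directions, against a background of 5.23% higher and 5.28% lower. Of 14 measured mesoderm genes 0 rose and 1 fell, Wnt3, whose AGP14 arrays read 0.18 and 2.68 and whose call ended without AGP14 replicate 1, knockout replicate 1 or knockout replicate 2 (largest limma adjusted p = 0.457). Of 14 neuroectoderm genes 3 rose and 0 fell while the median was -0.10. The neuronal tubulin gene Tubb3 read 8.07 and 8.13 against 6.22 and 6.98 (1.5, SE 0.25) and kept its call. Pax6, a factor of eye and neural tube, read 6.90 and 6.85 against 5.05 and 5.04, and lost its call with any 1 array left out (0.0618). Map2, the third, had 3 further probe sets that were all lower in AGP14 (-1.31 to -0.09).

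Of 27 measured feeder fibroblast markers, 2 rose (Fn1 and Fstl1) and 2 fell (Mmp2 and Cnn1), near the background of 5.23% and 5.28%. The median difference was 0.34, and both AGP14 arrays lay above both knockout arrays for 18, where 25.2% of all genes did so. The mean level of the list was 7.18 and 7.17 in AGP14, 6.99 and 6.96 in the knockout and 6.71 and 6.87 in wild type. No marker was at 0. The collagen genes Col1a2 and Col3a1 read 8.60 to 8.83 in AGP14 and 8.01 to 8.54 in the knockout. Fn1, which stem cells express as well, rose by 0.73 and kept its call, and so did Vim above, which fibroblasts also express; the part of feeder RNA in these was not tested. Fstl1 and Cnn1 lost their calls with any 1 array left out and Mmp2 without AGP14 replicate 2 (0.0529). In bulk samples, fewer cells of a type and less RNA per cell cannot be told apart. Housekeeping genes (12 measured) gave 0 rises, 1 fall and a median of 0.00; the fall, of Gusb (-0.72), ended without AGP14 replicate 2, knockout replicate 1 or knockout replicate 2.

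Imprinted genes, expressed from 1 parental allele and kept so by DNA methylation, had calls in both directions. Of 32 measured, 4 rose and 3 fell (background 5.23% and 5.28%), and the median was -0.10. In each direction 3 or 4 passed with any 1 array left out. Beside Slc38a4, the rises were of Plagl1, a zinc finger gene that read 8.61 and 8.79 against 7.0 and 7.21 (1.59, SE 0.32, limma adjusted p = 0.00283), of Ddc and of Ampd3. Ddc, the aromatic amino acid decarboxylase gene, read 7.94 and 7.98 against 7.27 and 6.99, and lost its call when probe sets were averaged (0.52, 0.355). Ampd3 (0.81) lost its call without AGP14 replicate 1, AGP14 replicate 2 or knockout replicate 2 (0.117). Nnat and Mest fell as given above, with Sgce, a sarcoglycan gene that read 6.01 and 5.93 against 7.5 and 7.82 (-1.69, SE 0.20). Its other probe set was higher in AGP14 (0.67) and no call was made on their average. Its neighbour Peg10 read 4.14 and 4.06 against 5.31 and 5.09 and did not pass (-1.10). Most imprinted genes did not pass, among them Peg3 (0.03), Igf2r (-0.13), Meg3 (-0.28) and Gnas (-0.16).

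Germline genes that promoter methylation silences in other tissues had calls in both directions: of 22 measured 2 rose and 2 fell (background 5.23% and 5.28%), with a median of -0.11. Hormad1, a protein of the meiotic chromosome axis, read 8.60 and 8.75 in AGP14, 7.33 and 6.18 in the knockout and 8.78 and 8.95 in wild type (1.92, SE 0.32, limma adjusted p = 0.000758). AGP14 thus lay near wild type, as it did for Rhox5. Zfp42 is the other rise. The falls of Tdrkh (-1.68), lost without AGP14 replicate 1 (0.0904), and of Dpep3 (-1.39), lost without AGP14 replicate 2, knockout replicate 1 or knockout replicate 2 (0.527), were of dim genes. Of 12 measured Rhox and Schlafen genes only Rhox5 passed. Of 8 measured genes of the 2-cell-like state 2 rose, Pramel6 and Eif1a, neither with a call that held without each array, and Tcstv1 read 5.62 and 3.67 in AGP14 against 2.32 and 2.44 without passing (2.26, adjusted p = 0.0926).

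**Figure D2:**
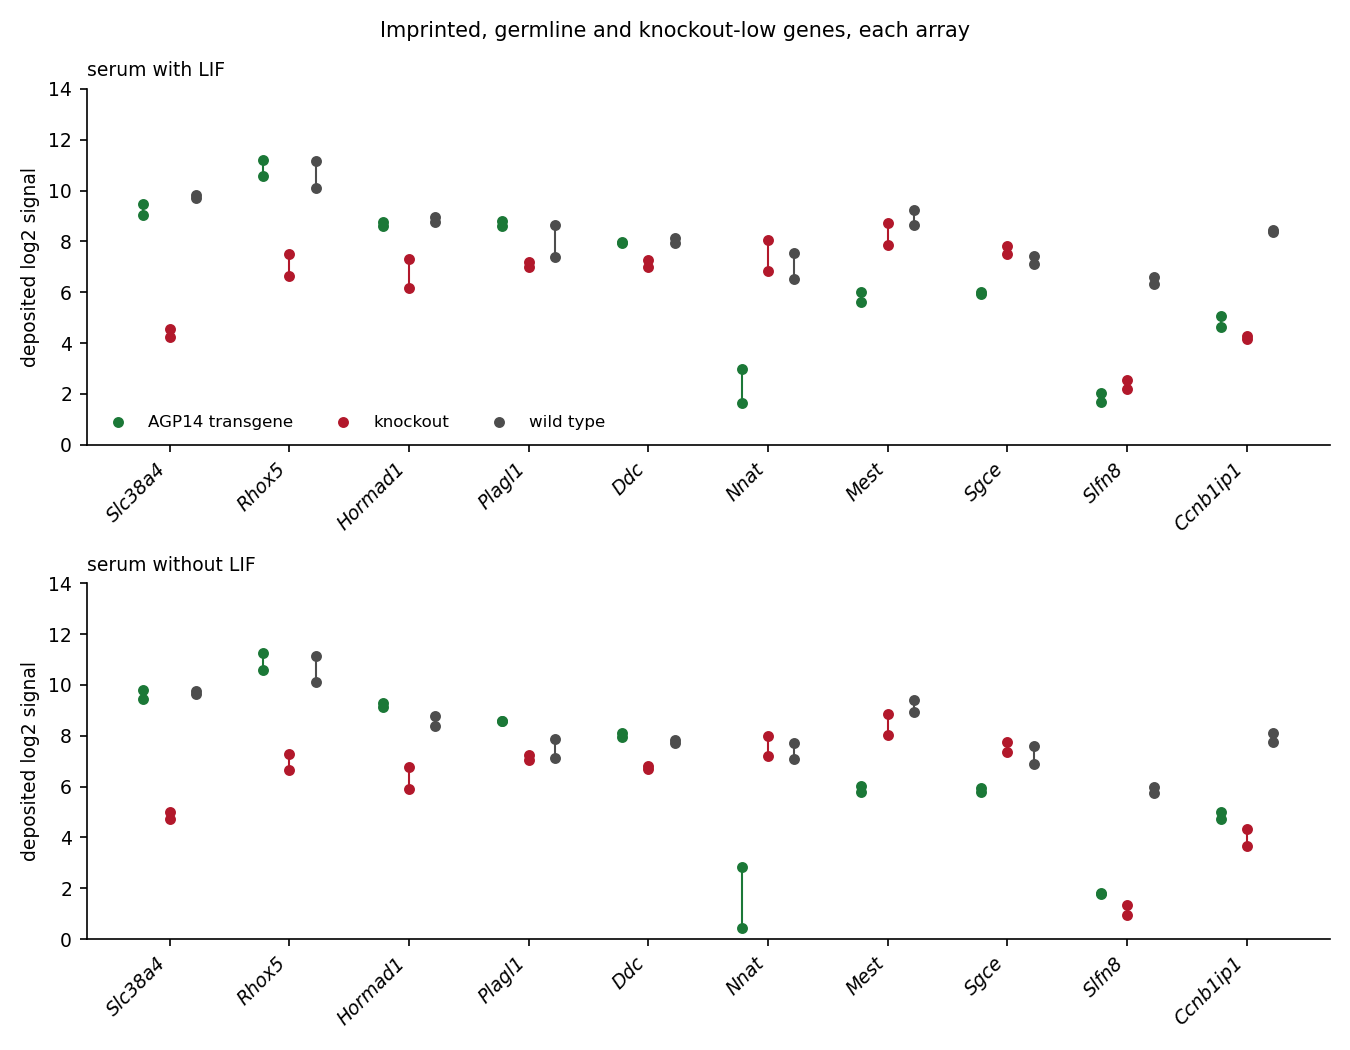
Deposited log2 signal (vertical axis) on each array of 10 imprinted, germline and knockout-low genes, in serum with LIF (top) and serum without LIF (bottom), with a line joining the 2 arrays of a group. Slc38a4, Rhox5 and Hormad1 in AGP14 lie at the wild-type level, Nnat, Mest and Sgce lie below both other genotypes, and Slfn8 and Ccnb1ip1 lie with the knockout.

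PRDM14 acts with polycomb and CBFA2T proteins, and several of their genes rose. Of 21 measured, 6 rose and 1 fell (background 5.23% and 5.28%), and the median was 0.13. Dropping any 1 array left 5 or 6 rises. Ezh2, the histone methyltransferase of polycomb complex 2, read 10.88 and 10.85 against 10.45 and 10.55 (0.37, SE 0.06, limma adjusted p = 0.000542). Runx1t1, the CBFA2T family member also called MTG8, read 7.85 and 7.88 in AGP14, 6.72 and 6.39 in the knockout and 6.17 and 6.85 in wild type (1.31, SE 0.24). The histone-binding gene Rbbp7 fell from 12.98 and 12.87 to 12.53 and 12.50. Cbfa2t2, the MTGR1 corepressor, rose by 0.43, Eed by 0.54 and Rnf2 by 0.27, but averaging probe sets ended the call of the first (0.08) and turned the sign of the others (-0.06 and -0.15). Kdm2b (0.74) lost its call without AGP14 replicate 1 or knockout replicate 2 (0.0863).

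Targets and components of other signalling pathways had mixed calls, beside shares of 5.23% higher and 5.28% lower over all genes. For Wnt (14 measured, 3 rose, 2 fell, median -0.02), the ligand gene Wnt8a fell from 5.44 and 5.20 to 3.85 and 3.36 (-1.72, SE 0.32, limma adjusted p = 0.00176). The targets Sp5 (1.42), Notum (1.76) and Lef1 (0.45) rose, but 0 or 1 rise of the list remained with any 1 array left out. For Nodal (12 measured, 1 rose, 2 fell), the antagonist gene Lefty1 read 10.14 and 10.13 in AGP14, 11.35 and 11.54 in the knockout and 11.61 and 11.14 in wild type (-1.31, SE 0.25). Skil, a SMAD corepressor, fell from 11.91 and 11.74 to 10.80 and 10.50, and Gdf3 rose. Nodal itself (-0.05) did not pass. For BMP (14 measured, 2 rose, 0 fell), Id4 rose by 1.07 and Smad6 by 0.69, Id4 not without AGP14 replicate 2 or knockout replicate 2 (0.0881) and Smad6 not without any 1 array (0.221), and Bmp4 (1.01) did not pass (adjusted p = 0.0531).

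Calls among metabolic and cell cycle genes were mostly of small differences, beside shares of 5.23% higher and 5.28% lower over all genes. Of 25 oxidative phosphorylation genes 5 rose and 0 fell, with a median of 0.10, and 1 to 4 rose with any 1 array left out. Uqcrc1, a core subunit of complex III, kept its call (11.67 and 11.63 against 11.43 and 11.38, limma adjusted p = 0.00381), and the other 4 rose by 0.17 to 0.25. Of 18 glycolysis genes 2 rose and 2 fell. The phosphofructokinase gene Pfkp read 11.08 and 10.97 in AGP14, 10.30 and 9.99 in the knockout and 10.92 and 10.99 in wild type (0.88, SE 0.11). Of 20 genes of G2 and M phase 0 rose and 7 fell, with a median of -0.20, but 0 to 6 fell with any 1 array left out, the fewest without AGP14 replicate 2. Cdc20 (-0.24), Cdk1 (-0.23) and Aurka (-0.34) are examples. Of 19 cholesterol synthesis genes 1 rose and 4 fell, with a median of -0.21, and 0 or 1 rose and 1 or 2 fell with any 1 array left out. Of 20 integrated stress response genes 2 rose and 1 fell (background 5.23% and 5.28%). The fall was of Ddit4, an inhibitor of mTORC1, from 11.85 and 11.77 to 11.18 and 10.97 (-0.73, SE 0.09, adjusted p = 4.69e-05). Of 14 p53 response genes 0 rose and 1 fell, Perp (-0.78), a call lost with any 1 array left out (0.0847).

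**Figure D3:**
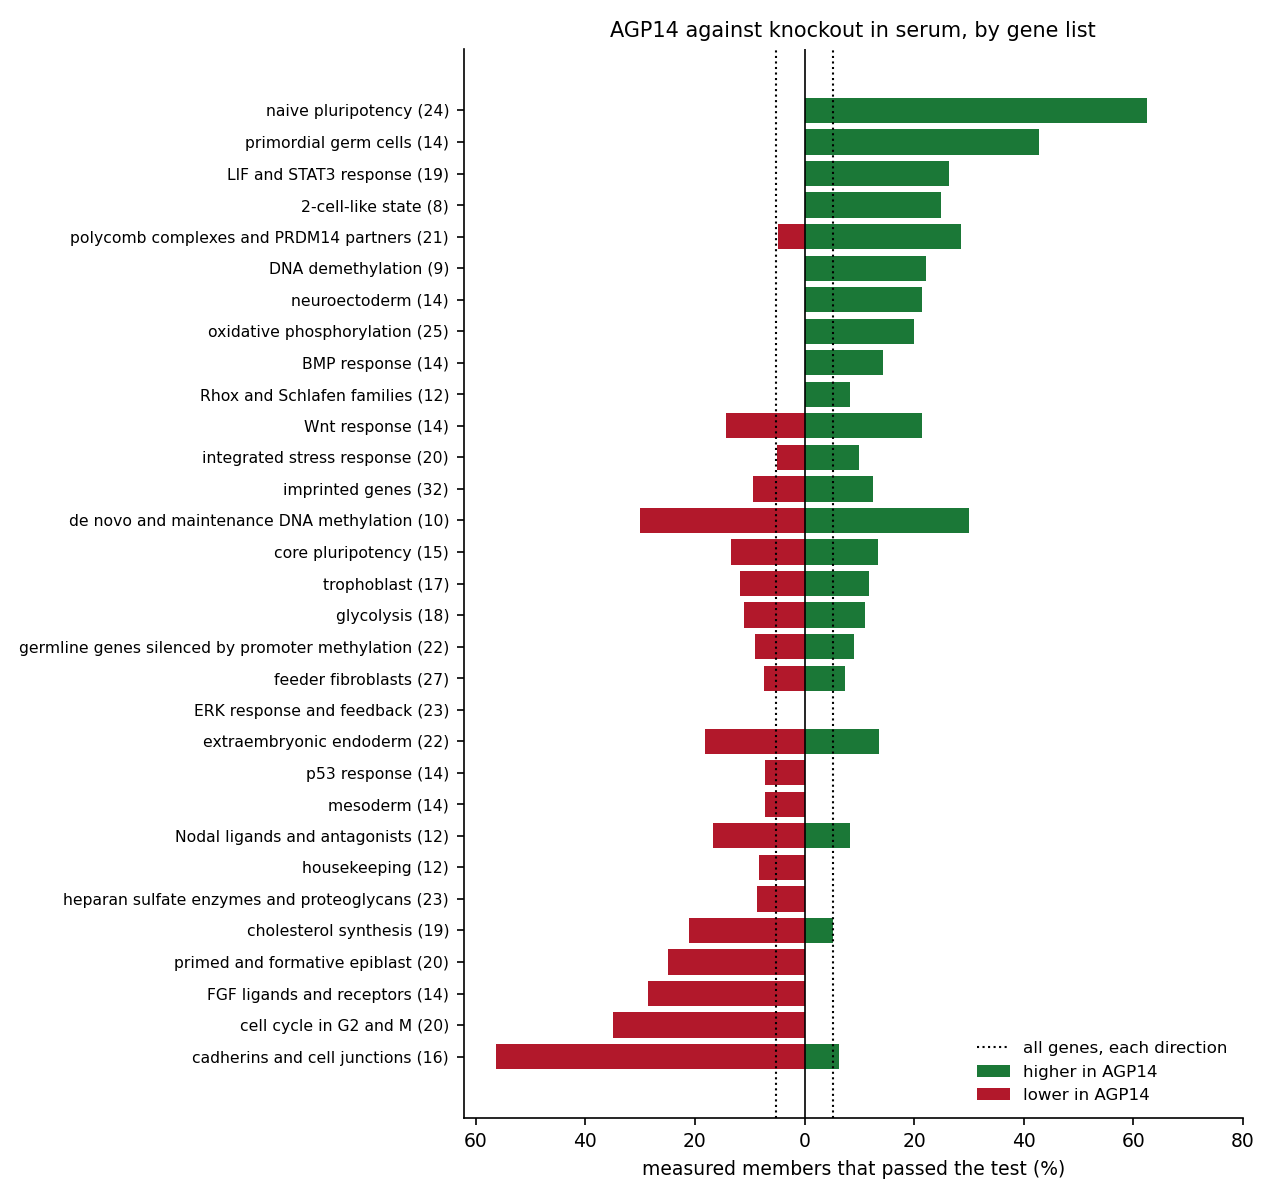
Share of the measured members of each of 31 gene lists (number measured in brackets) that were higher (right) or lower (left) in AGP14 than in the knockout in serum, in percent, with dotted lines at the shares over all genes (5.23% higher, 5.28% lower). Naive pluripotency (15 of 24 higher) and primordial germ cells (6 of 14 higher) extend farthest to the right and cadherins and cell junctions (9 of 16 lower) farthest to the left.

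The wild-type arrays in serum place these levels. AGP14 differed from wild type in 1267 genes (6.96%), 428 higher (2.35%) and 839 lower (4.61%), and the knockout differed from wild type in 759 (4.17%), 252 higher (1.39%) and 507 lower (2.79%). Both counts rest on the spread estimated over all 26 arrays and on single arrays. With the compared arrays alone they were 196 and 2. With 1 array left out the first was 153 without wild-type replicate 1, 207 and 350 without AGP14 replicates 2 and 1 and 1480 without wild-type replicate 2, and the second was 283 to 443, the fewest without knockout replicate 1. These comparisons share arrays with that of AGP14 and knockout, so their values are set side by side and no overlap is counted. Under quantile normalization the higher share moved from 33.8% to 47.4% for AGP14 against wild type and from 33.2% to 52.6% for the knockout. For Slc38a4 AGP14 minus wild type was -0.51 and knockout minus wild type -5.36 (limma adjusted p = 0.507 and 5.09e-07). For Rhox5 they were 0.27 and -3.54, and for Hormad1 -0.19 and -2.11, the second of each passing. These 3 genes thus differed from wild type in the knockout and did not pass in AGP14. The knockout calls held with any 1 array left out, but with the compared arrays alone those of Rhox5 (adjusted p = 0.0883) and Hormad1 (0.142) did not.

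Other genes in AGP14 lay beyond wild type, part of them with calls that ended when a wild-type or an AGP14 array was left out. Against wild type, Trpm1 differed by 2.15 in AGP14 and by -1.97 in the knockout. Tcl1 gave 1.10 and -1.82, Nr5a2 0.98 and -1.58, and Nanog 0.89 and -0.74, all of which passed in limma (largest adjusted p = 0.0479, for Nr5a2 against wild type). Smarcd3 (2.03), Sox7 (2.14), Runx1t1 (1.36) and Tubb3 (1.20) were above wild type in AGP14, with knockout differences of -1.0, -0.86, 0.05 and -0.30 that did not pass. Among the falls, Nnat, Mest, Hs6st2, Pim2 and Lefty1 were below wild type in AGP14 by -4.72, -3.13, -1.70, -2.24 and -1.24, all passing. The knockout minus wild-type values were 0.40, -0.64, 0.26, 0.22 and 0.07, with no call. The AGP14 calls of Smarcd3, Nnat, Mest, Hs6st2 and Pim2 held under every alternative. Without wild-type replicate 1 those of Trpm1, Tcl1, Nr5a2, Nanog, Sox7, Runx1t1, Tubb3 and Lefty1 did not pass, nor did those of Trpm1, Sox7 and Nr5a2 with averaged probe sets. Leaving out AGP14 replicate 1 or AGP14 replicate 2 also ended those of Tcl1, Nr5a2, Tubb3 and Lefty1. Leaving out AGP14 replicate 2 ended those of Trpm1, Nanog and Sox7. The AGP14 calls of Tcl1 and Nr5a2 ended as well without the intensity trend and with robust moderation. In the knockout the calls of Trpm1, Nr5a2 and Nanog did not pass without knockout replicate 1 or wild-type replicate 2. Fitting the compared arrays alone ended the AGP14 calls of Trpm1, Tcl1, Nr5a2, Nanog, Sox7 and Runx1t1. It also ended the knockout calls of Trpm1, Tcl1 (limma adjusted p = 0.151), Nr5a2 and Nanog, and quantile normalization ended that of Nanog as well. The wild-type arrays differ from each other: replicate 1 read lower than replicate 2 for all of the naive genes that rose and higher for Pou3f1, Fgf5, Pim2, Dnmt3a and Dnmt3b.

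Genes that differed between knockout and wild type in other media were followed in the serum comparison, which did not use those arrays. Same-numbered knockout arrays deviated together across media, so these sets are not shown to be independent of the serum arrays. Without LIF, 444 genes were lower in the knockout than in wild type. In serum 195 of them rose in AGP14 and 4 fell, with a median difference of 0.31. Of the 319 genes that were higher in the knockout 99 fell and 7 rose, with a median of -0.25. With the MEK inhibitor PD0325901 (0.4 uM), 404 genes were lower in the knockout, of which 179 rose and 5 fell (median 0.42), and 338 were higher, of which 140 fell and 9 rose (median -0.34). Against backgrounds of 5.23% and 5.28%, genes of each set were called more often in the direction opposite to the knockout difference, and most genes of each set were not called in either direction (245 of 444, 213 of 319, 220 of 404 and 189 of 338).

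Some genes with the largest knockout differences did not pass between AGP14 and knockout. Slfn8, a Schlafen family gene, read 2.03 and 1.69 in AGP14, 2.20 and 2.55 in the knockout and 6.33 and 6.60 in wild type. Its difference of -0.52 (SE 0.33) did not pass (limma adjusted p = 0.383), and AGP14 minus wild type was -4.61. Ccnb1ip1, a meiotic crossover factor also called Hei10, read 5.06 and 4.62 against 4.17 and 4.29, with wild type at 8.37 and 8.44. Its difference of 0.61 (SE 0.20) came close to the limit without passing (0.0574), and was a small part of the distance to wild type. The gene 2300002M23Rik, whose knockout difference under MEK inhibitor was -3.91, differed by 0.98 and did not pass (0.0644). Slc38a4, Gm21283 and Serpinb6c, also among the largest, rose by 4.86, 3.00 and 4.03, and Gm21283 reached 6.92 and 6.77 against 8.36 and 8.18 in wild type.

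Of the genes most raised in the knockout the behaviour was as uneven. Slc44a3, a choline transporter-like gene, read 2.43 and 3.51 in AGP14 against 5.42 and 5.78 (-2.63, SE 0.38, limma adjusted p = 0.000183), and Hs6st2 fell as given above. Nt5e, the ectonucleotidase CD73, differed by -0.82 and lost its call without AGP14 replicate 1, AGP14 replicate 2 or knockout replicate 1 (0.327). Cd99, a cell surface glycoprotein, read 8.47 and 9.22 in AGP14, 8.32 and 8.99 in the knockout and 6.39 and 7.26 in wild type, so that both knockout-derived groups lay above wild type with no difference that passed between them (0.19, SE 0.46). Myhas (-0.46), Mcc (-0.54), Nts (0.28), Dhrs3 (-0.28), Psg18 (-1.03) and Pglyrp1 (-0.73) did not pass.

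**Figure D4:**
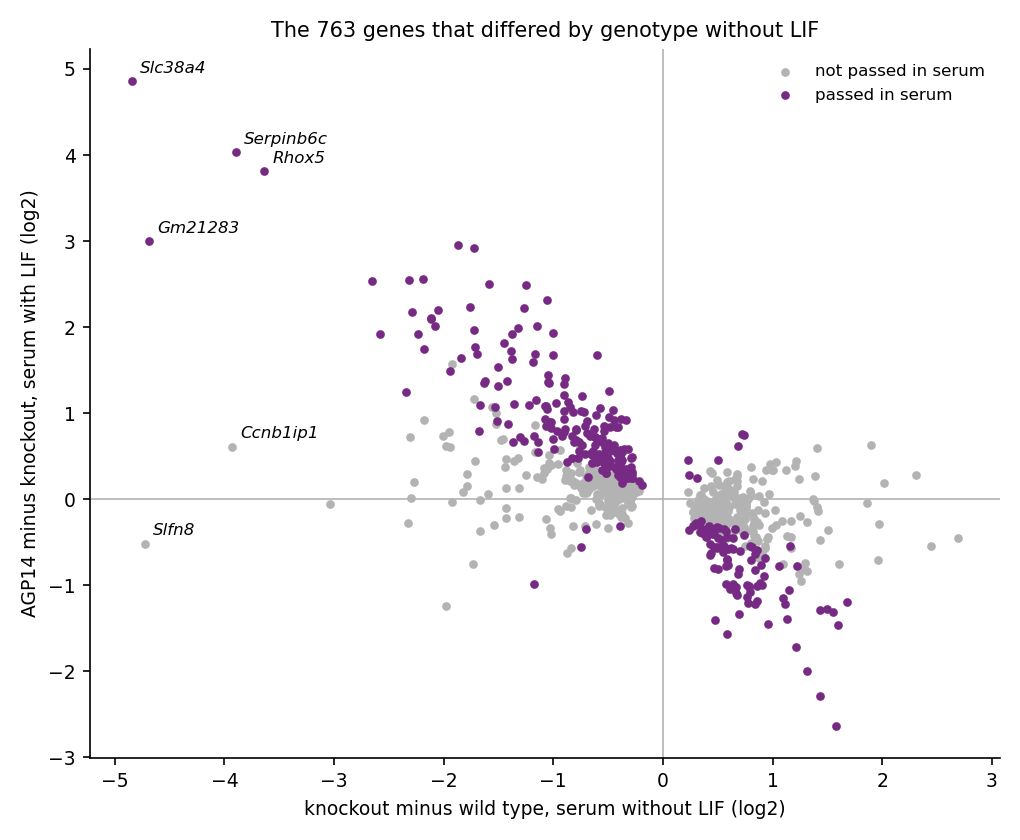
Each point is 1 of the 763 genes that differed between knockout and wild type in serum without LIF. The horizontal axis gives that log2 difference (knockout minus wild type), the vertical axis the log2 difference AGP14 minus knockout in serum with LIF, and purple points passed the latter test. Slc38a4, Gm21283, Serpinb6c and Rhox5 lie at the upper left, while Slfn8 and Ccnb1ip1 lie at the left near 0.

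The same genotypes in serum without LIF supplied a second set of 4 arrays. There 2421 genes (13.3%) differed between AGP14 and knockout, 1471 higher (8.09%) and 950 lower (5.22%), and the higher share moved from 60.8% to 50.1% under quantile normalization. Of the 952 genes that rose in serum, 744 also rose without LIF, which is 78.2% of the serum and 50.6% of the second set, and 0 fell. Of the 960 that fell, 576 also fell (60.0% and 60.6%) and 1 rose. The sign was the same for 938 and 934. No array is shared between the sets, but deviations of same-numbered arrays from their group means correlated at 0.25 to 0.35 over genes between media in AGP14 and at 0.41 to 0.64 in the knockout. The recurrence of calls is therefore not shown to be between independent samples.

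The 3 genes Slc38a4, Rhox5 and Nnat, chosen after their values were seen, had like values in both media. Slc38a4 read 9.46 and 9.81 in AGP14 and 4.71 and 5.0 in the knockout without LIF, Rhox5 11.24 and 10.59 against 6.65 and 7.29, and Nnat 2.82 and 0.42 against 8.0 and 7.21. The differences were 4.78, 3.94 and -5.99. Lama1 did not repeat, with 3.01 in serum and 0.04 without LIF (limma adjusted p = 0.965). Serpinb6c differed by 6.96, from 0.59 and 1.43 to 7.92 and 8.02, against 4.03 in serum; this change of the difference did not pass (limma adjusted p = 0.359).

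**Figure D5:**
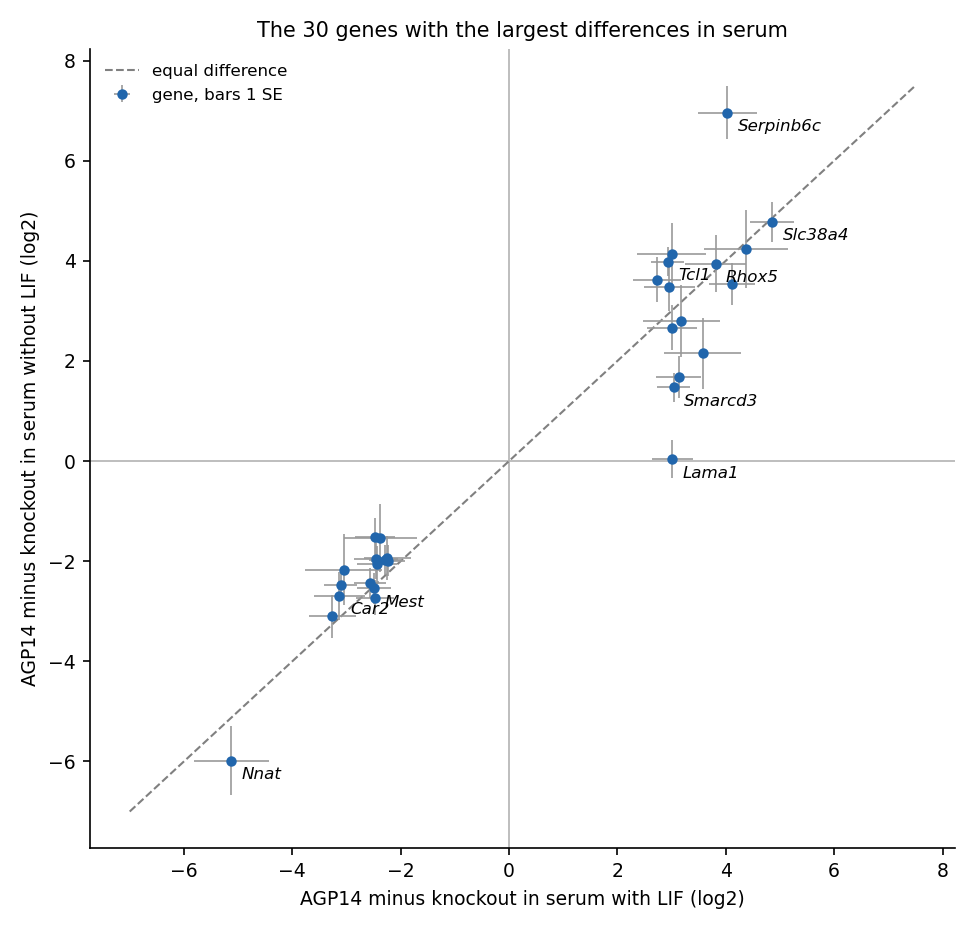
The 15 largest rises and 15 largest falls of the serum comparison, with the log2 difference AGP14 minus knockout in serum with LIF on the horizontal axis and in serum without LIF on the vertical axis. Bars are 1 SE and the dashed line marks equal differences; Lama1 is the gene near 0 on the vertical axis.

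The difference between AGP14 and knockout changed with the medium, by limma's interaction term, in 14 genes (0.077%), of which 12 (0.066%) had a lower and 2 (0.011%) a higher difference in serum with LIF; at an unadjusted p under 0.05 there were 927. With genotype and replicate number as fixed columns, chosen after seeing the data, 71 genes passed and all 14 were among them. Leaving out 1 array left 0 genes without knockout replicate 1 in serum (785 at an unadjusted p under 0.05), 7 without knockout replicate 2, 4 and 8 without AGP14 replicates 1 and 2, and, among arrays without LIF, 1 and 2 without AGP14 replicates 1 and 2 and 2 and 13 without knockout replicates 1 and 2. Klf2, a naive pluripotency factor, is 1 of them. In AGP14 it read 11.97 and 11.90 with LIF and 11.67 and 11.88 without, while in the knockout it read 11.36 and 11.07 with LIF and 9.99 and 9.55 without. The difference between genotypes was thus 0.72 with LIF and 2.00 without (interaction -1.29, SE 0.19, limma adjusted p = 0.0185). Morc1, a germline silencing ATPase gene, gave 1.07 and 2.15, and Epas1, the hypoxia factor HIF2-alpha, 0.55 and 2.02. Phf11d, a PHD finger gene, gave 1.75 and 3.21. In each the knockout arrays were lower without LIF than with it, and the AGP14 arrays changed less. Lama1 was the opposite: it read 7.0 and 7.24 in AGP14 with LIF and 4.82 and 5.10 without, while the knockout read 3.86 and 4.36, then 4.58 and 5.25.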

How the data were processed

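Gene expression was measured on 26 Affymetrix arrays in 13 groups of 2, and the comparison used 4 of them. Biotin-labelled cRNA was made by the one-cycle protocol, per the labels' protocols. The authors deposited log2 values (the base is inferred) for 45100 probe sets; how they scanned, background-corrected, normalized and summarised them is not given in the sources used. The platform annotation named 1 gene for 34944 probe sets, several for 932, which were left out, and none for 9160; 64 were controls. Each of 18193 genes took the probe set whose mean over the 26 arrays was highest.

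Testing used limma 3.58.1 (R 4.3.3), two-sided, with 1 coefficient per group over all 26 arrays, so that the groups share one estimate of the spread (13 residual and 5.05 prior degrees of freedom, intensity trend), and Benjamini-Hochberg adjustment over all genes. The members and the 31 gene lists were chosen with earlier results of these data known; lists carry no test and are given as counts and medians. Named genes are Prdm14, the 15 largest rises and falls among called genes with no overlap of arrays and a higher group mean of at least 6, list members that were called or among the 5 smallest p of their list, the interaction genes, and the 5 largest knockout differences in each direction from the other media. Of 81 named and called genes with further probe sets, 22 had at least 1 of opposite sign. Simulated data for AGP14 against knockout in serum (18193 genes) had noise drawn independently for each array and few changed genes. There the test recovered 35 of 67 genes changed by a log2 of 1, 55 of 67 at 2 and 61 of 66 at 3. It called 12 of 17993 unchanged genes. The real same-numbered arrays deviated together and far more genes were called, so these rates need not hold for the data.

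Replicate numbers did not pair AGP14 with knockout arrays in serum, but same-numbered arrays of a genotype deviated together across media (0.25 to 0.69). Alternatives were quantile normalization, averaged or separate probe sets, a filter on dim genes (mean under 5), no trend, robust moderation, blocks by replicate number and by genotype with replicate number, fewer arrays and each array left out; genotype with replicate number as fixed columns was chosen after seeing the data. AGP14 against knockout in 2i crosses labelling-control levels and was not used. The number of arrays limits the precision. Tables used Python 3.11.15, pandas 2.3.3 and numpy 2.4.6, plots matplotlib 3.10.9, and promoters the RefSeq table for GRCm38.p6.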

Additional observations from a re-analysis of the deposited data

Results flagged for a closer look

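In 14 genes the difference between AGP14 and knockout was itself different in serum with LIF and in serum without LIF, by the interaction term in limma at an adjusted p under 0.05 (0.0130 to 0.0492). Values are the difference with LIF minus the difference without. In 12 the value was negative, so AGP14 minus knockout was higher when LIF was absent: Epas1 -1.47, Phf11d -1.46, Klf2 -1.29, Bnc2 -1.20, Morc1 -1.07, Mycn -1.05, Gtsf1l -0.76, Zswim1 -0.74, Mybl2 -0.69, Usp28 -0.65, Enah -0.63 and Prrc1 -0.60. Lama1 (2.96) and Slc2a13 (3.21) were positive. Mycn, a MYC family proto-oncogene, differed by -0.23 with LIF, which did not pass, and by 0.82 without. Mybl2, a cell cycle transcription factor, differed by 0.25 and 0.95, and the deubiquitinase gene Usp28 by -0.31 and 0.34. Slc2a13, a myo-inositol transporter gene, read 4.03 and 4.21 in AGP14 with LIF and 1.71 and 1.48 without, dim levels throughout. None of the 14 passed without the intensity trend, with the serum arrays alone or without knockout replicate 1 in serum, since 0 genes passed in limma there (903, 957 and 785 at an unadjusted p under 0.05). With genotype and replicate number as fixed columns, chosen after seeing the data, their adjusted p ranged from 6.9e-05 to 0.0163. A further probe set of Bnc2 had the opposite sign in serum (-0.56).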

How the results depend on the processing

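In serum, the 1912 calls of AGP14 against knockout became 882 to 1169 with 1 array left out, where the lone array of a group is assumed to vary like the others, and 1288 to 2259 under the other settings, among them 2258 with the replicate block. Without LIF the 2421 calls became 1290 to 1543 with 1 array left out. The 14 interaction genes became 4 with averaged probe sets, 7 with every probe set tested, 0 without the intensity trend (903 at an unadjusted p under 0.05), 0 with serum arrays alone (957), 33 with genotype and replicate number as a random block, 71 with them as fixed columns and 0 to 13 with 1 array left out. Calls of AGP14 against wild type (1267) became 844 with averaged probe sets, 773 without the trend, 196 with the compared arrays alone, 635 with the 6 serum arrays and 153 to 1480 with 1 array left out. Those of knockout against wild type (759) became 503, 2, 286 and 283 to 443 under the last 4 of these. Naive genes that rose numbered 12 to 14 and junction genes that fell 5 to 7 with 1 array left out. Primed genes that fell numbered 3 without the trend, 3 with robust moderation and 2 to 4 with 1 array left out. The Prdm14 difference ranged from -0.10 (without knockout replicate 1) to 0.97.

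Averaging probe sets turned the sign of Bub1 (0.26), Eed (-0.055), Fgfr4 (-0.18), Map2 (-0.31) and Rnf2 (-0.15). With 1 array left out the sign varied for genes that were not called: Cd99 (-0.185 to 0.565), Dhrs3 (-1.23 to 0.66), Gadd45b (0.00 to 0.50), Gtsf1l (-0.165 to 0.075), Myhas (-1.07 to 0.16) and Spry1 (-1.06 to 0.08). Of 146 named and called genes, 64 kept their call under every alternative, 71 lost it with an array left out and 59 under another setting. Apart from what these settings remove, the cause was not tested. The replicate block pairs arrays by number alone. The 2 arrays per group limit every result.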
